A study of Mus musculus with 4 samples.

Results

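The genes described here are 9 members of the trans-synaptic adhesion system built on neurexins, neuroligins and receptor phosphatases of the LAR type: Nrxn2, Nrxn3, Nlgn1, Nlgn2, Nlgn3, Ptprd, Ptprs, Ptprf and Il1rapl1. They were taken by symbol from the 32285 genes that all 4 libraries list, and each symbol matched 1 row. Single-nucleus RNA sequencing (3′ chemistry, version 3.1) was carried out on hippocampus of mice of the genotype ArcCreERT2::eYFPflx, in which tamoxifen-inducible Cre is driven by the activity-dependent gene Arc and switches on an eYFP reporter. The Trained group (2 libraries, replicates 1 and 2) had learned active place avoidance, a task in which the animal keeps out of a shock zone on a rotating arena, and the Untrained group (2 libraries, replicates 1 and 2) had not; in both groups the hippocampus was collected 3 days later than a retention test, and no recall session preceded sampling. Both groups carry the Arc-driven Cre and the reporter, so the genotype does not separate them, and nuclei with the reporter were not analysed apart here. Tissue came from 2 trained and 2 untrained mice, and that each library is 1 mouse is not stated. The p-values of the training comparison therefore measure the spread between these libraries, which may be technical. The fits that compare cell classes take out differences between whole libraries, so their p-values measure the spread left after that. The comparison of the groups asks which transcripts differ while the memory is being kept.

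Neurexins are presynaptic membrane proteins that bind neuroligins, LRRTM proteins and cerebellin complexes across the cleft, and alternative promoters and splicing of each neurexin gene set which partners it can bind. LAR phosphatases (Ptprd, Ptprs and Ptprf) form a second presynaptic hub, with Slitrk proteins, Il1rapl1, interleukin-1 receptor accessory protein and others as postsynaptic ligands, and liprins and Trio as partners inside the axon. Both hubs organise the assembly of excitatory and inhibitory synapses. In hippocampus they act at the mossy fibre, Schaffer collateral and interneuron synapses.

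Upstream sequence is shown for the members whose levels differed most between cell classes or that carried repeated matches to a motif, because the count of a gene pools transcripts from all of its starts. The windows hold the 250 bases before an annotated start in RefSeq (mouse build GRCm38.p6, which is older than the build of the counts), and 6 of the 9 members had at least 1. The Nrxn3 windows lie on the plus strand at chr12:88953140-88953389 (A) and chr12:89812233-89812482 (B), the Ptprs window on the minus strand at chr17:56476481-56476730 and the Il1rapl1 window on the minus strand at chrX:88115949-88116198. Capitals mark matches to the motifs searched for.
Nrxn3 window A: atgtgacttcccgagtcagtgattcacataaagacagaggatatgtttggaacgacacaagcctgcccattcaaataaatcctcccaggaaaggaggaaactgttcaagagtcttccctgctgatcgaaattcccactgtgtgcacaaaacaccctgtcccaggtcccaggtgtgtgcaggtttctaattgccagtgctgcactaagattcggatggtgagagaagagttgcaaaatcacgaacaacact
Nrxn3 window B: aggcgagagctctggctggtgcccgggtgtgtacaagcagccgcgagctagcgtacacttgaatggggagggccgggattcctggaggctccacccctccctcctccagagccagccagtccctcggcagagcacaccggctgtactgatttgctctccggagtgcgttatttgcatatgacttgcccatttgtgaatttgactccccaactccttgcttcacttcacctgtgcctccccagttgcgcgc
Ptprs window: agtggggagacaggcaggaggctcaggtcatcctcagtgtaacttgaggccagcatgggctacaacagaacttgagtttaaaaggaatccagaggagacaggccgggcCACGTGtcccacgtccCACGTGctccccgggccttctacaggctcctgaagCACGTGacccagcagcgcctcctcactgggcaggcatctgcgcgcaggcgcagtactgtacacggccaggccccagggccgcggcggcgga
Il1rapl1 window: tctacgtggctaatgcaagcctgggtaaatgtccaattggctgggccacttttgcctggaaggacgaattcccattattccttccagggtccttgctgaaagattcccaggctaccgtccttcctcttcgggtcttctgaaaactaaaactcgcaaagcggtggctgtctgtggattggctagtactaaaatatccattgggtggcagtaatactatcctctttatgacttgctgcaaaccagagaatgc

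Starts A and B of Nrxn3 lie far apart in a gene of 1612.1 kb, and a 3′ count cannot tell their transcripts apart. The windows were searched on both strands for TGACGTCA (the full cyclic AMP response element), CACGTG and CAGCTG (E-boxes) and TATAAA. None of these motifs contains another, but matches to different motifs can share bases. The printed Ptprs window held CACGTG at positions 109, 125 and 160, counted from 1 at its 5′ end, and none of the others. Another Ptprs window (chr17:56462222-56462471) and another Nrxn3 window (chr12:88794254-88794503), not printed, held none of the motifs, and the Nlgn2 window, not printed, held 1 CAGCTG. At least 1 CACGTG was found in 6.02% of 32851 RefSeq windows of the same length, TGACGTCA in 1.55%, TATAAA in 12.4% and CAGCTG in 4271 windows. The printed windows of Nrxn3 and Il1rapl1 held none of these letters.

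Barcodes with at least 600 UMIs (unique molecules counted) numbered 6019 and 12206 in Trained replicates 1 and 2, and 16916 and 11969 in Untrained replicates 1 and 2. Their median depth was 736 and 887 UMIs in the Trained libraries and 957.5 and 1079 UMIs in the Untrained libraries, so the groups did not overlap in depth. The libraries held 23155826 to 39749125 UMIs in all, and any pair of libraries shared 17 to 65 barcodes, at most 0.533% of a library. A barcode was placed in a class when at least 3 markers of that class had a UMI, well above what its depth predicted, and the class led the next by a set margin; 12770 barcodes (27.1%) were placed. In the classes tested, from 24.3% (astrocytes) to 82.6% (cortical) of the barcodes lay near the limits of this rule. Near means exactly 3 markers with a UMI, or a score of observed over predicted markers under 2.5. A further 1973 barcodes close between classes were left out. Names rest on these markers and mean "granule-like" and so on; that suffix is omitted below. Dentate granule (2709 barcodes), CA1 pyramidal (1117), CA3 pyramidal (887), inhibitory (1054), thalamic excitatory (1757), cortical excitatory (717), oligodendrocyte (1829), oligodendrocyte precursor (569) and astrocyte (1490) barcodes were numerous enough to test. Barcodes with thalamic and cortical markers were among them although the tissue is labelled hippocampus. No member and no gene of the partner list below is a marker of any class.

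Counts were summed per class and library and are given as CPM, counts relative to a library total that was scaled by the trimmed mean of M values (TMM). For the class profile, each class was set against the mean of the other 8 in a fit with the library as a block, so that each mean covers 2 Trained and 2 Untrained libraries (n = 4). Of 81 pairs of a member and a class, 32 (39.5%) passed the threshold (adjusted p under 0.05, quasi-likelihood test of edgeR, Benjamini-Hochberg adjustment over all genes), against a background of 18.6% of all pairs of a gene and a class. The background ran from 3.88% of 8112 genes in oligodendrocyte precursors, through 6.31% in cortical, 15.4% in inhibitory, 16.1% in oligodendrocyte, 16.6% in CA1, 17.2% in astrocyte, 25% in CA3 and 27.0% in dentate granule barcodes, to 40.0% in thalamic barcodes. Under every alternative that could be run for a pair (8 to 10 of them), 19 of the 32 calls passed and 13 were lost at least once.

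Nrxn3, the neurexin with the steepest class profile, was highest in CA3 pyramidal and inhibitory barcodes and lowest in dentate granule barcodes. CA3 barcodes held 7074 and 8347 CPM in Trained replicates 1 and 2, and 7285 and 8379 CPM in Untrained replicates 1 and 2. Dentate granule barcodes held 2426 and 1515 CPM in the Trained libraries, and 1676 and 1305 CPM in the Untrained libraries. CA3 was above dentate granule in all 4 libraries, by 2.92-fold to 6.42-fold. The log2 difference from the mean of the other classes was 1.06 in CA3 (SE 0.09, adjusted p = 2.2e-18), 0.92 in inhibitory (SE 0.09), 0.54 in CA1 (SE 0.09) and 0.39 in thalamic barcodes (SE 0.09). It was -1.42 in dentate granule (SE 0.11, adjusted p = 1.76e-20), -0.72 in astrocyte (SE 0.10) and -0.57 in oligodendrocyte barcodes (SE 0.10), and all 7 calls passed in every alternative run. In order of mean level the classes were CA3 (7771 ± 689 CPM, SD, n = 4), inhibitory (7208 ± 832), CA1 (5653 ± 455), thalamic (5168 ± 396), cortical (3983 ± 393), oligodendrocyte precursor (3704 ± 440.3), oligodendrocyte (2901 ± 506), astrocyte (2674 ± 736) and dentate granule (1731 ± 488). Of neighbours in this order, only thalamic and cortical barcodes had ranges that did not overlap.

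Nrxn2, the other neurexin described, varied less between classes. It was highest in oligodendrocyte precursors, glial cells that receive synapses, with 318 and 218 CPM in the Trained libraries and 291 and 288 CPM in the Untrained libraries. The log2 difference from the other classes was 0.59 there (SE 0.13, adjusted p = 0.00106). CA1 barcodes were lowest, with 173 and 165 CPM in the Trained libraries and 135 and 115 CPM in the Untrained libraries, a log2 difference of -0.50 (SE 0.13, adjusted p = 0.00156). Oligodendrocyte precursors were 1.32-fold to 2.50-fold above CA1 in the 4 libraries. The call in oligodendrocyte precursors was lost without Untrained replicate 1 or 2, and the call in CA1 without Untrained replicate 2. In dentate granule barcodes the difference was -0.24 (adjusted p = 0.0495), and 1 of 10 alternatives kept that call. Every pair of neighbours in the order of Nrxn2 levels overlapped.

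Nlgn1, the neuroligin of excitatory postsynapses, stood out in CA3 pyramidal barcodes. They held 3856 and 5454 CPM in the Trained libraries, and 4497 and 4944 CPM in the Untrained libraries. CA1 barcodes came next, with 3158 and 3563 CPM in the Trained libraries and 2926 and 3025 CPM in the Untrained libraries. These classes did not overlap, and CA3 was above CA1 by 1.22-fold to 1.63-fold in the 4 libraries. The log2 difference from the other classes was 0.98 in CA3 (SE 0.08, adjusted p = 2.64e-19) and 0.33 in CA1 (SE 0.08), while it was -0.40 in inhibitory (SE 0.09) and -0.40 in oligodendrocyte barcodes (SE 0.09). The call in oligodendrocytes was lost at a minimum of 1000 UMIs and under the stricter gate. Below CA1, the means ran from 2749 ± 271 CPM in oligodendrocyte precursors to 2038 ± 279 CPM in oligodendrocytes (SD, n = 4), and all neighbours overlapped.

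Nlgn2, the neuroligin of inhibitory synapses, and Nlgn3, which occurs at both kinds of synapse, were sparse. Nlgn2 had class means from 32.5 to 59.7 CPM and Nlgn3 from 32.1 to 60.7 CPM. Neither passed the threshold in any class; the lowest adjusted p was 0.0947 for Nlgn2 (oligodendrocytes) and 0.393 for Nlgn3 (oligodendrocytes), from edgeR's quasi-likelihood test. No Nlgn3 UMI was counted in oligodendrocyte precursors of Trained replicate 1, whereas Untrained replicate 2 had 63.4 CPM. A difference between classes in these genes was not detectable at this depth.

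Ptprd, a LAR phosphatase and presynaptic receptor for Slitrk proteins and Il1rapl1, was highest in cortical and thalamic excitatory barcodes. Cortical barcodes held 3392 and 6038 CPM in the Trained libraries, and 7190 and 6913 CPM in the Untrained libraries. Thalamic barcodes held 4142 and 6295 CPM in the Trained libraries, and 5299 and 5969 CPM in the Untrained libraries. CA3 barcodes were lowest, with 1673 and 1354 CPM in the Trained libraries and 2506 and 1648 CPM in the Untrained libraries. The thalamic class exceeded the next class, oligodendrocytes (3249 ± 304 CPM, SD, n = 4), without overlap, and the cortical and thalamic classes overlapped each other. The log2 difference from the other classes was 1.20 in cortical (SE 0.10, adjusted p = 1.29e-18) and 1.07 in thalamic barcodes (SE 0.09, adjusted p = 9.86e-18). It was -0.74 in CA3 (SE 0.11), -0.65 in inhibitory (SE 0.11), -0.56 in CA1 (SE 0.11) and -0.32 in dentate granule barcodes (SE 0.11). The dentate granule call was lost in 5 of 10 alternatives and the other 5 calls in none. Among the classes where both were called, Ptprd and Nrxn3 thus ran in opposite directions in CA3, inhibitory and CA1 barcodes. They ran in the same direction in thalamic and dentate granule barcodes. Over the 9 classes Pearson's r of their mean log2 CPM was -0.18.

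Ptprs, a LAR phosphatase that also binds proteoglycans, and Ptprf (LAR itself) varied less or were sparse. Ptprs was highest in thalamic barcodes, with 334 and 362 CPM in the Trained libraries and 322 and 337 CPM in the Untrained libraries, and lowest in dentate granule barcodes, with 203 and 252 CPM in the Trained libraries and 221 and 213 CPM in the Untrained libraries. The thalamic difference was 0.39 on the log2 scale (SE 0.09, adjusted p = 0.000147) and passed in all 10 alternatives. Calls in CA3 (0.30), dentate granule (-0.26) and oligodendrocyte barcodes (-0.36) were each lost in at least 5 alternatives. Ptprf was lowest in CA3 barcodes, at 11.9 ± 10.3 CPM (SD, n = 4) against 30.4 CPM as the mean of the other classes. That difference of -0.98 (SE 0.33, adjusted p = 0.0205) was lost without Trained replicate 2 and without Untrained replicate 2.

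Il1rapl1, a postsynaptic ligand of Ptprd whose human gene is linked to intellectual disability, had its highest level in thalamic barcodes. They held 3357 and 3604 CPM in the Trained libraries, and 3541 and 3887 CPM in the Untrained libraries. No other class overlapped this range, dentate granule barcodes coming next at 2159 ± 257 CPM (SD, n = 4). CA3 barcodes were lowest, with 1191 and 886 CPM in the Trained libraries and 1061 and 1208 CPM in the Untrained libraries, and the thalamic level was 2.82-fold to 4.07-fold that of CA3 in the 4 libraries. The log2 difference from the other classes was 1.20 in thalamic barcodes (SE 0.08, adjusted p = 1.44e-24), 0.39 in cortical (SE 0.09) and 0.37 in dentate granule barcodes (SE 0.08). It was -0.76 in CA3 (SE 0.10), -0.42 in astrocyte (SE 0.09), -0.38 in oligodendrocyte (SE 0.09) and -0.33 in CA1 barcodes (SE 0.09). Calls in CA1, cortical, oligodendrocyte and astrocyte barcodes were lost in at least 1 alternative. Over the 9 classes Il1rapl1 correlated with Ptprd (Pearson's r = 0.75 of mean log2 CPM), Nrxn3 with Ptprs (r = 0.76) and Nlgn1 with Nrxn3 (r = 0.43). The strongest correlation of any pair of members was that of Nlgn1 with the sparse Ptprf (r = -0.90). Dentate granule barcodes were above the other classes for Il1rapl1 (0.37) and below them for Ptprd (-0.32). These are descriptions over 9 points that share libraries.

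**Figure D1:**
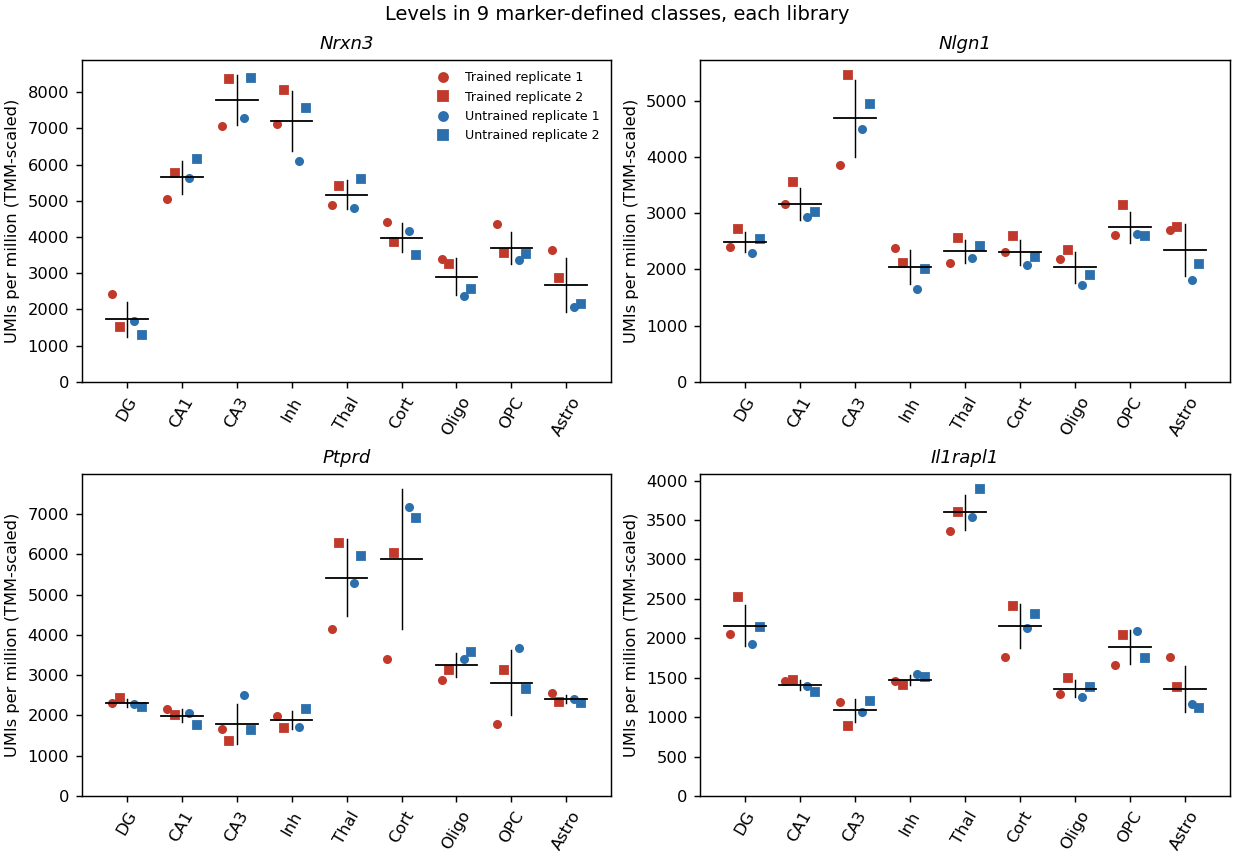
Level of the 4 longest members in each class: y, TMM-scaled CPM; points, libraries, with Trained left of Untrained; lines, mean and SD over the 4 libraries. DG, dentate granule; Inh, inhibitory; Thal, thalamic; Cort, cortical; OPC, oligodendrocyte precursor. Nrxn3 peaked in CA3 and inhibitory barcodes, Nlgn1 in CA3, Ptprd in cortical and thalamic, and Il1rapl1 in thalamic barcodes.

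**Figure D2:**
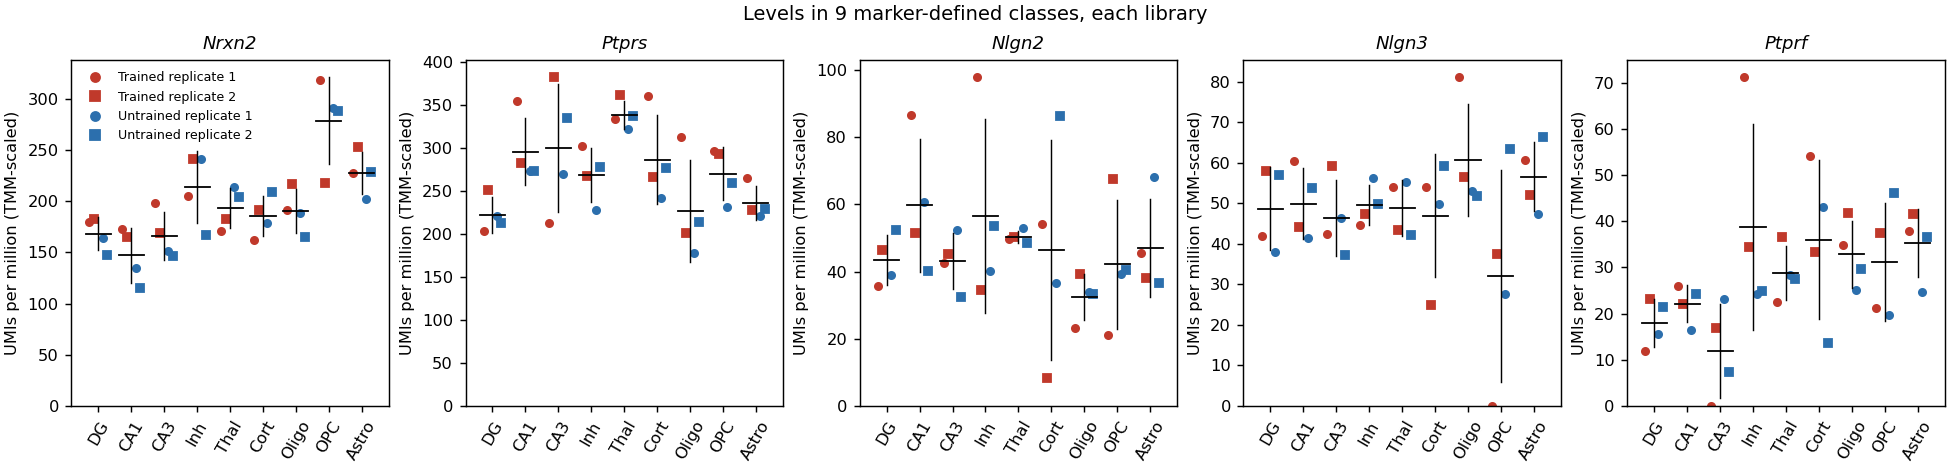
Level of the 5 shorter members in each class, drawn and labelled as for the long ones, with the mean and SD over 4 libraries. The ranges of most classes overlapped, and Nlgn2, Nlgn3 and Ptprf stayed under 100 CPM in every library.

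The same genes had UMIs in barcodes of microglia and endothelium, non-neuronal cells that form no synapses. Microglial barcodes (149, median depth 1238 UMIs) held Nrxn3 at 2940 CPM (95% exact Poisson interval 2723 to 3170, counting error only, without TMM). They held Nlgn1 at 2038 CPM, Ptprd at 3157 CPM and Il1rapl1 at 1700 CPM, and endothelial barcodes (148) held 2381, 1670, 1682 and 1021 CPM of the same 4 genes. Class means no higher than the upper bound of the microglial interval (3170 CPM for Nrxn3, 2231 for Nlgn1, 3395 for Ptprd and 1877 for Il1rapl1) were those of Nrxn3 in dentate granule, astrocyte and oligodendrocyte barcodes, Nlgn1 in inhibitory and oligodendrocyte barcodes, Il1rapl1 in CA3, CA1, inhibitory, oligodendrocyte and astrocyte barcodes, and Ptprd in every class but the cortical and thalamic ones. The endothelial upper bounds were lower (2631 CPM for Nrxn3, 1882 for Nlgn1, 1895 for Ptprd and 1189 for Il1rapl1), and only Nrxn3 in dentate granule, Ptprd in CA3 and inhibitory, and Il1rapl1 in CA3 barcodes had means no higher than these. Of the microglial barcodes 67.8% lay near the limits of the class rule, and of the endothelial ones 58.1%. Between microglial and endothelial barcodes the levels of Ptprd, Nrxn3 and Il1rapl1 themselves differed beyond counting error. For Ptprd the interval was 1488 to 1895 CPM in endothelium and 2932 to 3395 in microglia. It was 2149 to 2631 and 2723 to 3170 for Nrxn3, and 871 to 1189 and 1536 to 1877 for Il1rapl1. The intervals of Nlgn1 overlapped (1477 to 1882 and 1858 to 2231). After thinning to 600 UMIs, Nrxn3 had a UMI in 94.4% to 97.6% of CA3 barcodes and in 40.0% to 66.4% of dentate granule barcodes over the 4 libraries and 60% to 68.8% of microglial barcodes. Without thinning these shares were 98.1% to 100%, 52.9% to 72.8% and 70.0% to 87.5%, at median depths over the libraries pooled of 1494, 917 and 1238 UMIs.

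The members also differed in how much of their signal lay in the shallowest barcodes. Low-UMI barcodes are the 25% of each library with the fewest UMIs, at most 190 and 208 UMIs a barcode in the Trained libraries and 297 and 295 UMIs in the Untrained libraries. For Nrxn3 (1612.1 kb in GENCODE vM21, GRCm38), the level in barcodes with at least 600 UMIs was 3.47-fold to 4.82-fold that in low-UMI barcodes. The same ratio was 3.05 to 4.41 for Nlgn1 (906.2 kb), 2.36 to 3.88 for Ptprd (2270.7 kb) and 2.47 to 4.05 for Il1rapl1 (1374.8 kb). It was 0.552 to 0.634 for Nrxn2 (125.4 kb), 0.470 to 0.624 for Nlgn2 (14.7 kb), 0.440 to 0.580 for Nlgn3 (26.8 kb), 0.916 to 0.997 for Ptprs (64.1 kb) and 0.725 to 0.897 for Ptprf (83.2 kb). Thus the 4 long members were higher in deep barcodes and the 5 short ones lower, in every library. For all 4 long members, Trained replicate 1, the shallowest library, gave the smallest ratio.

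**Figure D3:**
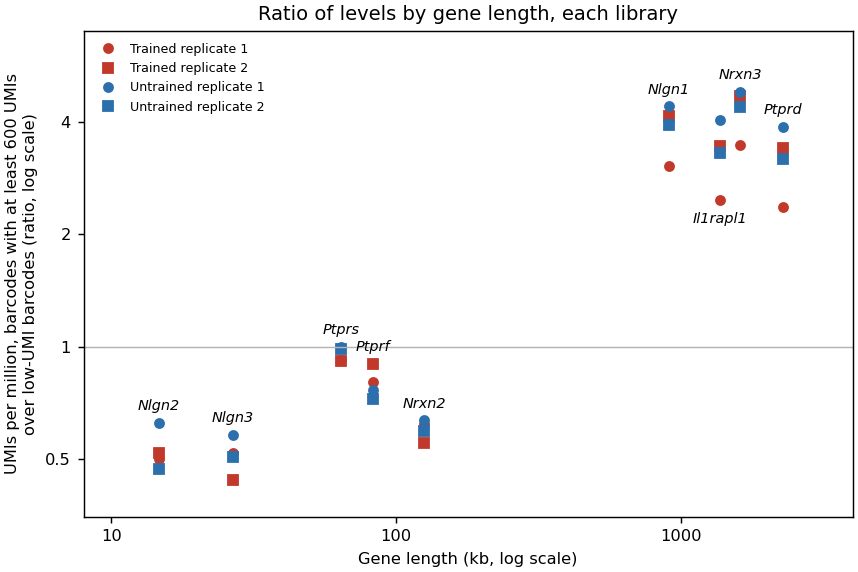
Ratio of the level (CPM) in barcodes with at least 600 UMIs to that in low-UMI barcodes, against gene length, both on log axes; 1 point per library and member. The 4 longest members lie at 2.36 to 4.82 and the 5 others at 0.440 to 0.997.

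Training was tested within each class, 2 Trained against 2 Untrained libraries. Of the 81 pairs of a member and a class, 72 passed the count filter, and none of the 72 passed the threshold (quasi-likelihood test of edgeR, Benjamini-Hochberg adjustment), against a background of 0.0384% of all pairs of a gene and a class. By class the background was 0.182% in astrocyte, 0.0473% in CA1, 0.0440% in CA3, 0.0211% in dentate granule, 0.0177% in inhibitory and 0.0120% in thalamic barcodes, and 0% in cortical, oligodendrocyte and oligodendrocyte precursor barcodes. DESeq2's Wald test also called 0 members. At an unadjusted p under 0.05, 6 of the 72 pairs stood (8.33%), near the 6.63% of all pairs. Log2 differences ran from -0.56 to 0.61 and the lowest adjusted p was 0.127. Both Trained libraries lay above both Untrained libraries in 21 pairs (29.2%, background 17.8%) and below them in 6 (8.33%, background 18.3%); classes share libraries, so the pairs are not independent. The pairs that failed the filter were of Nlgn2, Nlgn3 and Ptprf. Levels below are scaled within each class, relative to the total of the genes that passed the filter there. They therefore differ from those of the class profile, and not only slightly in every class. For example, Ptprd in cortical barcodes of Untrained replicate 1 was at 8557 CPM on this scale and 7190 CPM in the class profile.

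Nrxn3 was nearest to a difference in glial barcodes. Astrocyte barcodes held 3904 and 3042 CPM in Trained replicates 1 and 2, against 2227 and 2300 CPM in Untrained replicates 1 and 2. The groups did not overlap, with a log2 difference of 0.61 (95% interval 0.23 to 0.99, adjusted p = 0.127, edgeR). Oligodendrocyte barcodes held 3615 and 3400 CPM in the Trained libraries, against 2537 and 2702 CPM in the Untrained libraries, a log2 difference of 0.42 (95% interval 0.04 to 0.80, adjusted p = 0.609, edgeR). In dentate granule barcodes the values were 2370 and 1452 CPM in the Trained libraries, against 1636 and 1263 CPM in the Untrained libraries, which overlap. CA3 barcodes, where Nrxn3 is highest, held 6816 and 7701 CPM in the Trained libraries, against 6843 and 7683 CPM in the Untrained libraries, a log2 difference of 0.00 (95% interval -0.32 to 0.32). Inhibitory barcodes gave 0.16 (-0.27 to 0.59) and CA1 barcodes -0.13 (-0.42 to 0.15). At a minimum of 1000 UMIs the astrocyte difference was 0.03 and the oligodendrocyte difference 0.16; Trained replicate 1 then held 17 astrocyte and 33 oligodendrocyte barcodes.

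Nlgn1 lay above 0 in all 9 classes, with log2 differences from 0.01 in CA3 to 0.47 in astrocytes. Astrocyte barcodes held 2904 and 2931 CPM in the Trained libraries, against 1954 and 2251 CPM in the Untrained libraries. This difference of 0.47 (95% interval 0.09 to 0.86) did not pass the threshold (adjusted p = 0.269, edgeR). Both Trained libraries lay above both Untrained libraries there and in 5 other classes. Of all pairs of a gene and a class, 17.8% did so, and the classes share libraries. At a minimum of 1000 UMIs the astrocyte value of Nlgn1 was 0.49, also without a call. Over the alternatives it ran from 0.36 to 0.57. CA1 barcodes held 3153 and 3487 CPM in the Trained libraries, against 2918 and 3008 CPM in the Untrained libraries, a log2 difference of 0.17 (-0.14 to 0.47). Il1rapl1 in astrocytes had 1887 and 1466 CPM in the Trained libraries, against 1253 and 1202 CPM in the Untrained libraries, a log2 difference of 0.44 (adjusted p = 0.361, edgeR). At a minimum of 1000 UMIs, with those 17 astrocyte barcodes, that value was -0.15, and without Trained replicate 1 it was 0.26. Over the other classes Il1rapl1 ran from -0.16 to 0.17.

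In the same barcodes, summed CA1 and inhibitory markers were higher in the Trained libraries in both glial classes, and summed CA3 markers in astrocytes. Summed thalamic markers were lower in the Trained libraries in astrocytes. Over both groups, the mean levels of Nrxn3 and Il1rapl1 in astrocytes were no higher than the microglial bound given above, and were above the endothelial one. The 8 CA1 markers summed to 1907 and 1599 CPM in astrocyte barcodes of the Trained libraries, against 1075 and 1097 CPM in those of the Untrained libraries, with 2 of the 8 above and 1 below the Untrained libraries in both Trained libraries. The 8 CA3 markers summed to 621 and 563 CPM in the Trained libraries, against 411 and 428 CPM in the Untrained libraries, with 4 of the 8 above and 1 below. The 9 dentate granule markers overlapped, with 1700 and 1765 CPM in the Trained libraries and 1431 and 1985 CPM in the Untrained libraries. The 10 thalamic markers were lower, at 2180 and 2169 CPM in the Trained libraries and 2286 and 2864 CPM in the Untrained libraries. Of these 10, 0 were above and 2 below. The 12 inhibitory markers were higher, at 2261 and 1785 CPM in the Trained libraries and 1515 and 1721 CPM in the Untrained libraries. Of these 12, 2 were above and 2 below. In oligodendrocyte barcodes the CA1 markers summed to 1764 and 1874 CPM in the Trained libraries, against 1130 and 1391 CPM in the Untrained libraries, with 2 of the 8 above and 2 below. The inhibitory markers summed there to 2373 and 2489 CPM in the Trained libraries, against 2227 and 2369 CPM in the Untrained libraries. Of these 12, 2 were above and 4 below. None of the CA1 or CA3 markers was at 0 in all 4 libraries. The part of these markers, and of the lower depth of the Trained libraries, in the results for Nrxn3, Nlgn1 and Il1rapl1 was not tested.

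Ptprd had no call, and its values were furthest below 0 in cortical and CA3 barcodes. It was also below 0 in oligodendrocyte precursor (-0.33), oligodendrocyte (-0.22), thalamic (-0.10) and inhibitory barcodes (-0.06). It was above 0 in CA1 (0.11), dentate granule and astrocyte barcodes (0.04). In oligodendrocytes the groups did not overlap, with 3072 and 3259 CPM in the Trained libraries, against 3609 and 3791 CPM in the Untrained libraries. Cortical barcodes held 4204 and 7009 CPM in Trained replicates 1 and 2, against 8557 and 8093 CPM in Untrained replicates 1 and 2. The groups did not overlap, yet Trained replicate 1 was far below Trained replicate 2, and the log2 difference was -0.56 (SE 0.21, adjusted p = 0.508, edgeR). Without Trained replicate 2 it was -1.02 and passed the threshold (adjusted p = 7.88e-14, edgeR, the lone Trained library being assumed to vary like the Untrained ones), and without Trained replicate 1 it was -0.24. The Trained replicate 1 class held 65 barcodes, against 128 to 314 in the others. In the same barcodes the markers of other neuron classes were summed, Trained against Untrained libraries. The 9 dentate granule markers summed to 1414 and 714 CPM against 466 and 631 CPM, with 5 above and 0 below. The 8 CA1 markers summed to 1524 and 1140 CPM against 848 and 996 CPM, with 3 above and 1 below. The 12 inhibitory markers summed to 2093 and 1722 CPM against 1188 and 1366 CPM, with 4 above and 1 below. The 8 CA3 markers summed to 808 and 698 CPM against 549 and 496 CPM, with 3 above and 0 below. The 10 thalamic markers overlapped, at 2038 and 1559 CPM against 1689 and 1566 CPM, with 2 above and 2 below. The part of these markers in the Ptprd value was not tested. CA3 barcodes held 1612 and 1249 CPM in the Trained libraries, against 2354 and 1511 CPM in the Untrained libraries, which overlap (-0.46, 95% interval -0.86 to -0.07). This value was -0.13 without Untrained replicate 1, -0.74 without Untrained replicate 2 and -0.28 without Trained replicate 2. The 7 cortical markers summed to 1608 and 1601 CPM in CA3 barcodes of the Trained libraries, against 1754 and 2126 CPM in those of the Untrained libraries, with 1 of the 7 above and 3 below. However, 1 of the 7, Hs3st4, was among the 10 genes with the highest fold in CA3 barcodes over the other barcodes. In CA1 barcodes the 7 summed to 639 and 492 CPM in the Trained libraries and 654 and 530 CPM in the Untrained libraries. The part of the cortical markers in the Ptprd value of CA3 was not tested. In dentate granule barcodes Ptprd differed by 0.08 on the log2 scale (95% interval -0.27 to 0.42), with 2265 and 2329 CPM in the Trained libraries and 2228 and 2128 CPM in the Untrained libraries.

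The other members gave no call either. Nrxn2 ran from -0.23 in thalamic to 0.41 in CA1 barcodes, where the Trained libraries held 173 and 162 CPM, against 135 and 115 CPM in the Untrained libraries. Ptprs lay above 0 in all 9 classes, from 0.09 to 0.33. Nlgn2 ran from -0.41 to 0.30, Nlgn3 from -0.19 to 0.42 and Ptprf from 0.16 to 0.52. The widest 95% interval of the 72 reached 0.97 on the log2 scale to either side of its value.

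**Figure D4:**
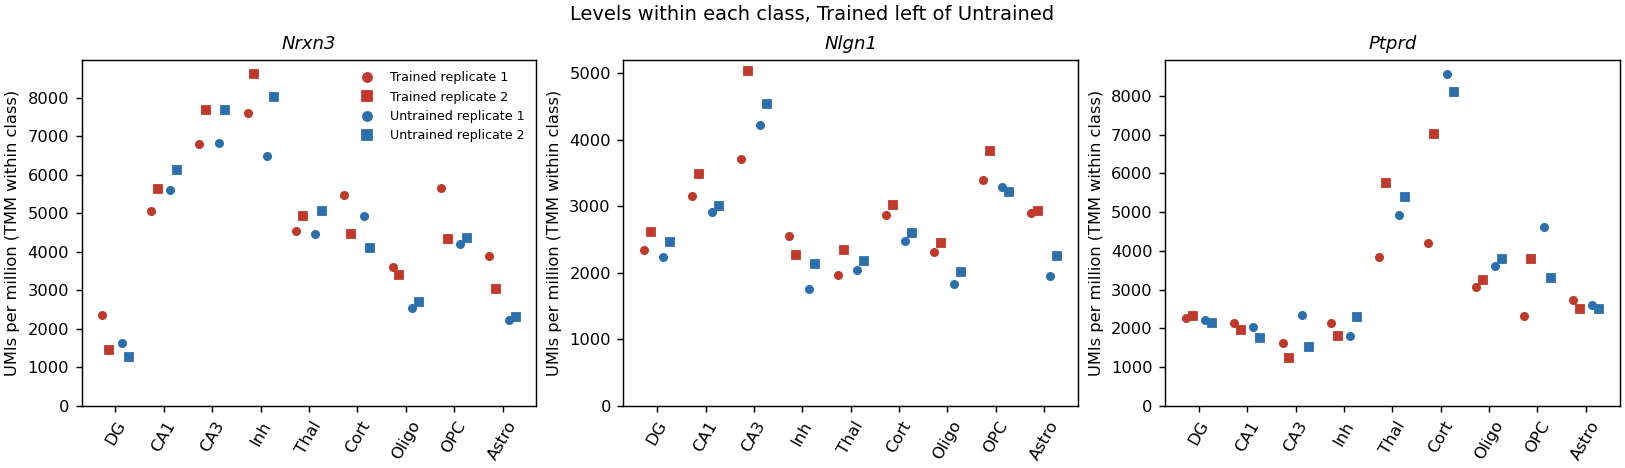
Levels of Nrxn3, Nlgn1 and Ptprd in each class and library: y, CPM scaled within the class; Trained points left of Untrained points. Both Trained libraries lay above both Untrained libraries for Nrxn3 in 2 classes, Nlgn1 in 6 and Ptprd in 1, and below them for Ptprd in 2. Over all pairs of a gene and a class, the shares were 17.8% above and 18.3% below. No pair drawn passed the threshold.

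**Figure D5:**
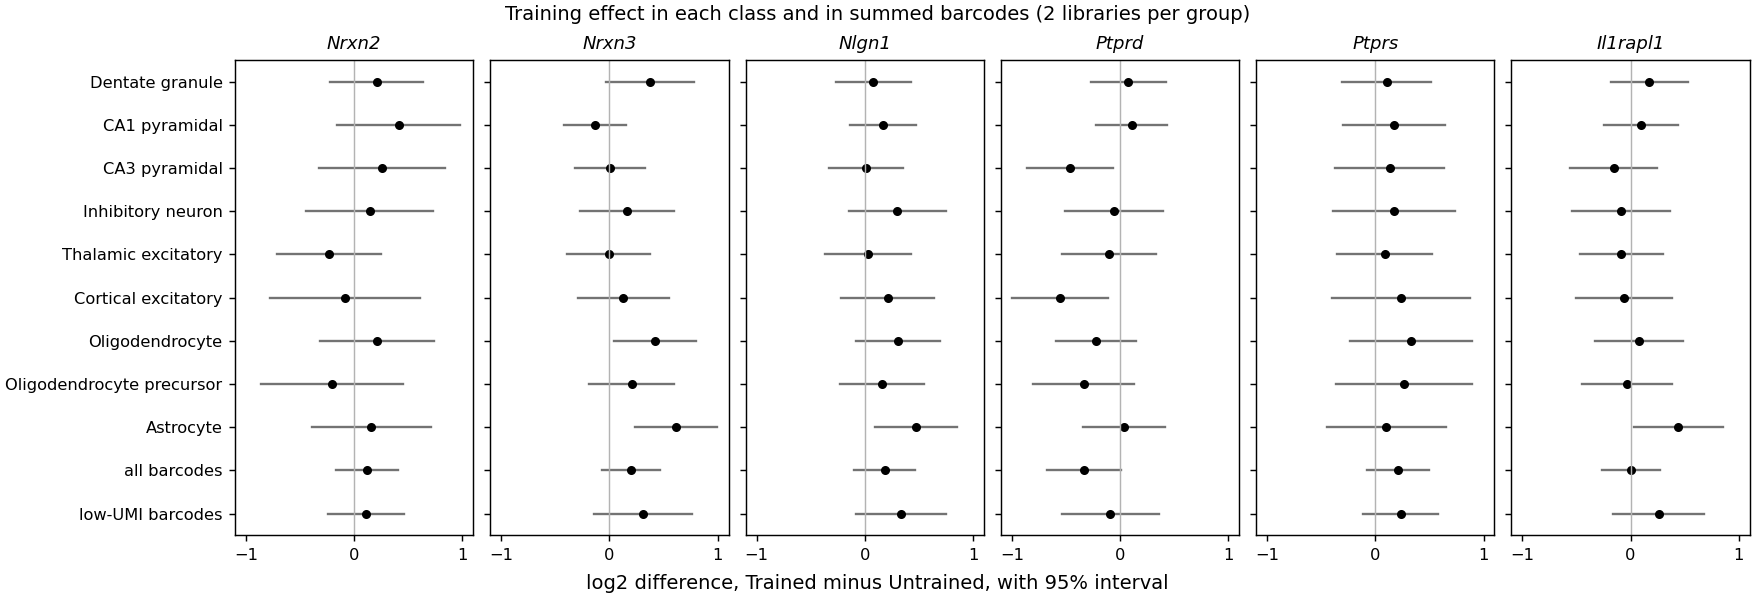
Log2 difference of Trained minus Untrained libraries (point) with its 95% interval (line) for the 6 better-measured members, by class and in summed barcodes. Intervals that leave 0 out are those of Nrxn3, Nlgn1 and Il1rapl1 in astrocytes, Nrxn3 in oligodendrocytes, and Ptprd in CA3 and cortical barcodes.

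Whether training acted differently between classes was tested with the interaction of class and training. It called 0 of the 9 members, against 0.111% of 8112 genes; 2 members were under an unadjusted p of 0.05, where the background was 6.47%. These were Nrxn3 (adjusted p = 0.602, edgeR's quasi-likelihood test) and Ptprd (adjusted p = 0.743). Without Trained replicate 2 both passed, with adjusted p = 0.00093 for Nrxn3 and 0.00337 for Ptprd, and without the count filter both passed as well, at 0.0145 and 0.0218. Leaving out any other library called 0 members.

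Summed over all barcodes with at least 600 UMIs, none of the 9 members passed in edgeR's quasi-likelihood test (background 0% of 17455 genes) or in DESeq2's Wald test, and 0 were under an unadjusted p of 0.05 (background 6.27%). Nrxn3 held 4570 and 4610 CPM in the Trained libraries, against 3917 and 4099 CPM in the Untrained libraries, a log2 difference of 0.20 (95% interval -0.07 to 0.46). Nlgn1 held 2644 and 2912 CPM in the Trained libraries, against 2385 and 2501 CPM in the Untrained libraries, a difference of 0.19 (-0.09 to 0.47). Ptprd held 2480 and 2750 CPM in the Trained libraries, against 3714 and 2875 CPM in the Untrained libraries, a difference of -0.33 (-0.68 to 0.01), which was -0.14 without Untrained replicate 1 and -0.51 without Untrained replicate 2. Nlgn1 was at 0.11 without Trained replicate 2. Ptprs held 294 and 263 CPM in the Trained libraries, against 238 and 243 CPM in the Untrained libraries, a difference of 0.21 (-0.08 to 0.50). Both Trained libraries lay above both Untrained libraries for 4 of the 9 members (Nrxn3, Nlgn1, Ptprs and Nrxn2; background 19.0%) and below them for 1 (Ptprd; background 18.7%). For Il1rapl1 the groups overlapped (1637 and 1628 CPM in the Trained libraries, against 1635 and 1623 CPM in the Untrained libraries). In such sums, fewer nuclei of a class and less RNA per nucleus cannot be told apart.

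The low-UMI barcodes gave positive values for Nlgn1, Nrxn3, Il1rapl1, Ptprs, Nlgn3 and Nrxn2, and negative values for Ptprd, Nlgn2 and Ptprf. Nlgn1 had 839 and 693 CPM in the Trained libraries, against 576 and 638 CPM in the Untrained libraries, a log2 difference of 0.34 (SE 0.20). Nrxn3 had 1272 and 969 CPM in the Trained libraries, against 866 and 939 CPM in the Untrained libraries, a difference of 0.31 (SE 0.21). Il1rapl1, whose groups overlapped, had a difference of 0.26 (SE 0.20). The difference was 0.23 for Ptprs (SE 0.16), 0.15 for Nlgn3 (SE 0.15) and 0.11 for Nrxn2 (SE 0.17). It was -0.09 for Ptprd (SE 0.21), -0.03 for Nlgn2 (SE 0.16) and -0.14 for Ptprf (SE 0.18). None of the 9 members passed the threshold there (edgeR, background 0.00766% of 13057 genes) or an unadjusted p of 0.05 (background 10.3%), and the lowest barcodes of the groups differ in depth.

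A list of 49 partners was described beside the members: neurexin ligands (LRRTM proteins, cerebellins, C1q-like proteins, neurexophilins, calsyntenins), neuroligin partners (MDGA proteins and scaffolds), LAR phosphatase ligands and liprins, and proteins bound to the neurexin tail. In every class 0 of the 28 to 41 partners tested passed for training. The median log2 difference of the list was highest in astrocytes (0.17, against 0.01 for all genes and 0.16 for the members), followed by cortical barcodes (0.16, against 0.00 for all genes and 0.04 for the members) and oligodendrocytes (0.16, against -0.02 for all genes and 0.30 for the members). It was lowest in CA3 barcodes (-0.04, against -0.01 for all genes). Nearest to the threshold was Lrrtm4, a postsynaptic neurexin receptor of excitatory synapses, in CA1 barcodes, with 1589 and 1072 CPM in the Trained libraries and 803 and 691 CPM in the Untrained libraries. Its log2 difference was 0.80 (SE 0.19, adjusted p = 0.0526, edgeR). In the same CA1 barcodes the 9 dentate granule markers, of the class highest in Lrrtm4, summed to 1011 and 602 CPM in the Trained libraries, against 435 and 542 CPM in the Untrained libraries, with 3 of the 9 above and 0 below; their part in this value was not tested. Ppfia2, a liprin that binds LAR phosphatases, had 1057 and 963 CPM in astrocyte barcodes of the Trained libraries, against 546 and 623 CPM in those of the Untrained libraries, a difference of 0.79 (SE 0.23, adjusted p = 0.0925, edgeR).

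By the rule of the smallest unadjusted p, 2 partners are named in each class, none past the threshold. In dentate granule barcodes these were Nxph1, a neurexophilin (log2 difference 1.11, with 175 and 52.4 CPM in the Trained libraries and 44.8 and 33.3 CPM in the Untrained libraries), and Ppfia1, a liprin (0.66). In CA1 Apba1, which binds the neurexin tail with Cask, came after Lrrtm4 (0.50), and it was also named in inhibitory barcodes (0.55), with Ppfia1 (-1.02). In CA3 they were Il1rapl2 (-1.02) and Mdga2 (0.29), in thalamic barcodes Slitrk3, a Ptprd ligand of inhibitory synapses (0.80), and Dlg4, which encodes PSD-95 (-0.50). In cortical barcodes Ppfia2 (0.73) and Lrrtm4 (0.51) were named, and in oligodendrocytes Ppfia2 (0.69) and Slitrk3 (0.90). In oligodendrocyte precursors they were Lrrtm3 (-0.82) and Il1rap (0.80), and in astrocytes Dlg2 followed Ppfia2 (0.52).

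In the class profile the partners varied widely. Of the 40 partners tested, 57.5% passed in thalamic barcodes (background 40.0%), 50% in dentate granule (27.0%), 47.5% in CA3 (25%), 40% in astrocyte (17.2%), 30% in CA1 (16.6%), 27.5% in inhibitory (15.4%) and in oligodendrocyte (16.1%), and 20% in cortical (6.31%) and in oligodendrocyte precursor barcodes (3.88%). Dentate granule barcodes, low in Nrxn3, were highest of the classes for Lrrtm4, at 6410 ± 803 CPM (SD, n = 4; log2 difference 1.63, adjusted p = 6.37e-31), for C1ql3, a secreted neurexin ligand (486 ± 59.4 CPM, log2 1.21), and for Gpc4, a glypican that binds Ptprs (132 ± 21.4 CPM, log2 2.41). CA3 barcodes were highest for Clstn2, a calsyntenin (1590 ± 216 CPM, log2 1.31). Thalamic barcodes, high in Ptprd, were highest for Il1rap, a ligand of Ptprd (708 ± 189 CPM, log2 1.60), and for Trio, a guanine exchange factor that binds LAR (609 ± 64.0 CPM, log2 0.98). Inhibitory barcodes were highest for Nxph1 (1241 ± 336 CPM), and all of these passed the threshold in edgeR's quasi-likelihood test.

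Genes whose mean log2 CPM over the 9 classes ran most like a member were sought among 4252 genes at 50 CPM or more that are no markers. For Nrxn3 they were Cntnap2 (Pearson's r = 0.947), C530008M17Rik (0.945) and 2210408F21Rik (0.943). For Nlgn1 they were Scamp1 (0.966), Ppp1r14c (0.956) and Mpped2 (0.929), and for Ptprd they included Tox (0.854) and Ebf1 (0.849). For Il1rapl1 they were Zfp827 (0.944), Pcp4 (0.918) and Ppp3cb (0.907), for Ptprs Mafg (0.960), Pde10a (0.943) and Rian (0.939), and for Nrxn2 Ube2e1 (0.906), Tsg101 (0.900) and Pcdh11x (0.879). With 9 classes from the same 4 libraries these are descriptions. Nlgn2, Nlgn3 and Ptprf were below the level set for this comparison.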

How the data were processed

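The authors deposited UMI counts per gene and barcode for 4 libraries, made with Cell Ranger 7.0.0 per the file headers; the submitters' processing notes name Cell Ranger 8, STAR and the build GRCm39, which is at odds with the header. Whether introns and strand were used is not given in the sources used here. From these deposited counts, barcodes with at least 600 UMIs were kept and placed in classes when at least 3 markers had a UMI, the score of observed over predicted markers was at least 2 and its lead at least 0.5; this rule was set after seeing the data. No doublet caller was run, and barcodes close between classes were left out. Counts were summed per class and library, where each library held at least 30 barcodes (10 in the alternatives), and tested with edgeR 4.0.16 in R 4.3.3 (TMM, filterByExpr, quasi-likelihood test, Benjamini-Hochberg adjustment over all genes, threshold 0.05); DESeq2 1.42.0 was an alternative. The steps were tested on simulated data. All 9 members are named in every class, the partners past the threshold or otherwise the 2 with the smallest p, and the 3 genes most like each member with a mean of at least 50 CPM. 1 of the genes most like Ptprd is not reported here. The members and lists were chosen with earlier results of these data known. Intervals on summed counts and shares are exact, at 95%, and cover counting error only. Alternatives were another scaling, no count filter, a replicate block, leaving out each library, at least 1000 UMIs, a stricter gate and at most 1% mitochondrial UMIs.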

Additional observations from a re-analysis of the deposited data

How the results depend on the processing

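With 2 libraries a group and shallow barcodes, the number of genes called for training moved with the processing, while the members gave 0 calls under every alternative except those named here. In dentate granule barcodes the 2 genes called became 1 with DESeq2 size factors, 7 with no count filter, 22 with the replicate block, 1 with DESeq2's Wald test, 4 with the stricter gate and 1 at 1% mitochondrial. In CA1 the 3 became 0 with no count filter, 1 with the replicate block, 1 with DESeq2's test, 8 at 1000 UMIs, 0 with the stricter gate and 1 at 1% mitochondrial. In CA3 the 3 became 1 with DESeq2's test and 1 at 1000 UMIs. The 1 in inhibitory barcodes became 6 with the replicate block and 0 at 1000 UMIs, the 1 in thalamic barcodes 17 with the block, and the 0 in cortical barcodes 13 with the block and 4 at 1000 UMIs. Oligodendrocytes (0) gave 8 with no count filter, and 1 each with DESeq2's test, the stricter gate and 1% mitochondrial; oligodendrocyte precursors (0) gave 1 at 1% mitochondrial. Astrocytes (13) gave 20 with the replicate block, 28 with DESeq2's test, 0 at 1000 UMIs, 0 with the stricter gate and 2 at 1% mitochondrial. All barcodes (0) gave 159 with no count filter, 6 with DESeq2's test and 1 at 1000 UMIs, and low-UMI barcodes (1) gave 89 with no filter and 52 with the block. The interaction (9) gave 72 with no filter, 0 without the library block, 1 at 1000 UMIs, 0 with the stricter gate and 5 at 1% mitochondrial, and 2 members with no filter. The class profile (32 pairs) gave 21 with the stricter gate, under which CA3, cortical and oligodendrocyte precursor barcodes could not be fitted. At 1000 UMIs Trained replicate 1 held 12 to 49 barcodes in each of the 9 classes tested. The causes of the other moves were not tested.

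Leaving out each library in turn gave 2 to 12 genes in dentate granule, 2 to 13 in CA1, 2 to 5 in CA3, 1 to 5 in inhibitory, 0 to 6 in thalamic, 0 to 40 in cortical, 0 to 47 in oligodendrocyte, 0 to 0 in oligodendrocyte precursor and 1 to 102 in astrocyte barcodes, 1 to 189 over all barcodes, 8 to 353 in low-UMI barcodes and 0 to 147 for the interaction. Over the members it gave 0 to 1 pairs for training (Ptprd in cortical barcodes, without Trained replicate 2), 0 to 2 for the interaction and 21 to 35 in the class profile; a lone library was assumed to vary like the other group. Libraries with the same number share only that number: their deviations correlated at -0.003 to 0.229, and the replicate block called 0 members.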
